A study of Arabidopsis thaliana with 4 samples.

Results

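The genes described here are those of the chloroplast genome of Arabidopsis thaliana, taken as every gene ID of the deposited expression table that starts with ATCG. There were 88 such IDs among 27655 in all, beside 122 IDs of the mitochondrial genome and 27445 of the nucleus. Of the 88, 80 were above 0 in at least 1 library and 8 were listed at 0 in all 4 libraries. No ribosomal or transfer RNA gene was among them. The table gives IDs only, so a gene name is used where the values of an ID came out as whole reads at the coding length of the gene for which that ID stands in Arabidopsis nomenclature. That was so for 67 IDs, which stand for 64 genes, and the other IDs are given without a name or role.

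The chloroplast, or plastid, keeps a small circular genome of bacterial origin. It encodes core subunits of the photosynthetic complexes, the large subunit of the carbon-fixing enzyme Rubisco, and part of the organelle's own machinery for transcription and translation. Most plastid genes are transcribed together in units by a bacterial-type RNA polymerase, encoded in the plastid, or by a phage-type polymerase encoded in the nucleus. Plastid messages mostly lack a long poly(A) tail, so a library made by capturing poly(A) RNA holds only a trace of them, and its level need not follow the amount of plastid RNA in the leaf.

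The study set plants with more or less of the nuclease AtBBD1 against wild type (WT) under drought, imposed by watering soil-grown plants with 20% polyethylene glycol (PEG). Leaves of 3-week-old plants gave 4 messenger RNA libraries, 1 per group: p35S:AtBBD1 overexpressors (line OX5-4 in the paper) after 6 h of PEG, the knockout atbbd1 after 6 h of PEG, WT after 6 h of PEG, and WT at 0 h, before PEG. Each library held RNA pooled from leaves of at least 5 plants, OX5-4 is a single transgenic line, and atbbd1 is a single T-DNA insertion line of the Columbia ecotype. The labels name the 35S promoter, whereas the paper names one of cassava vein mosaic virus for its overexpression lines. With 1 library per group, no difference below has a replicate check and none was tested, and every interval covers counting error only.

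AtBBD1 itself stood at 631 FPKM in OX5-4, 36.6 FPKM in atbbd1, 541 FPKM in WT after PEG and 95.5 FPKM in WT at 0 h, where FPKM is the number of fragments scaled to transcript length and to all mapped fragments. The level in OX5-4 was thus close to that of WT after PEG, and the level in atbbd1 was far below it. The libraries held 17693000, 16992000, 15731000 and 15332000 mapped fragments in the same order, as recovered from the steps in the FPKM values. The 5 leaf markers, such as the light-harvesting protein gene CAB2, ranged between 268 and 15027 FPKM, and the 5 root markers between 0 and 0.14 FPKM.

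Plastid transcripts made up little of each library, and the atbbd1 library held the most. The 88 IDs summed to 799 FPKM in OX5-4, 1007 FPKM in atbbd1, 756 FPKM in WT after PEG and 722 FPKM in WT at 0 h. These sums were 0.127%, 0.156%, 0.119% and 0.119% of the summed FPKM of all genes. In bulk leaf RNA, fewer plastids or green cells and less plastid RNA per cell cannot be told apart, nor can either be told apart from how much RNA without a long tail was carried through the library preparation. Counted as reads over the 67 named IDs, the plastid share was 752 reads per 1000000 mapped (95% counting interval, 739 to 765) in OX5-4, 981 (966 to 996) in atbbd1, 704 (691 to 717) in WT after PEG and 678 (665 to 691) in WT at 0 h. The interval of atbbd1 lay above those of the other 3 libraries, and that of OX5-4 lay above those of WT after PEG and WT at 0 h.

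The RNA of the other organelle did not follow the same order. The 122 mitochondrial IDs summed to 54.1 FPKM in OX5-4, 49.1 FPKM in atbbd1, 58.1 FPKM in WT after PEG and 75.3 FPKM in WT at 0 h, so the atbbd1 library had the highest plastid sum and the lowest mitochondrial sum. The ratio of the plastid sum to the mitochondrial sum was 14.8 in OX5-4, 20.5 in atbbd1, 13.0 in WT after PEG and 9.58 in WT at 0 h.

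**Figure D1:**
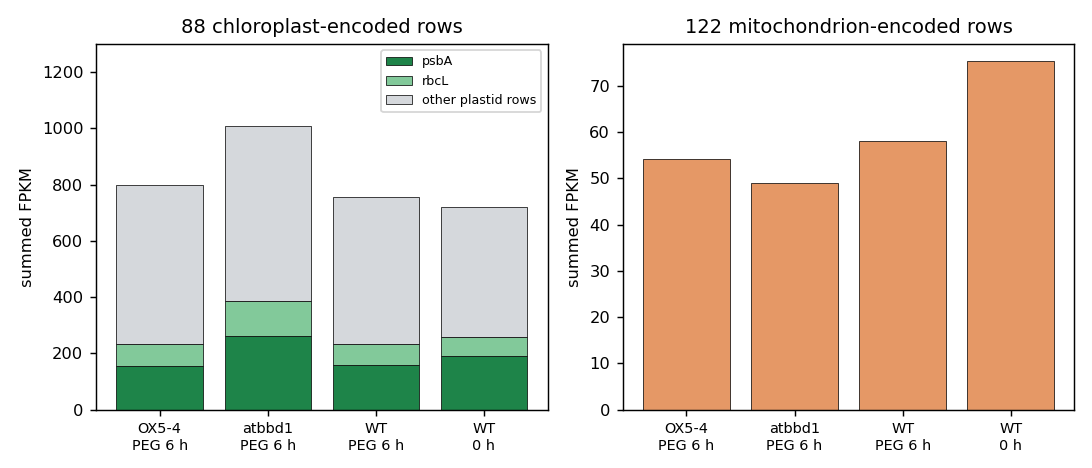
Summed FPKM per library of the 88 chloroplast-encoded IDs (left, bars split into psbA, rbcL and all others) and of the 122 mitochondrion-encoded IDs (right), on linear axes that start at 0, for OX5-4, atbbd1 and WT after 6 h of PEG and WT at 0 h. The plastid bar is highest in atbbd1, at 1007, and the mitochondrial bar is highest in WT at 0 h, at 75.3.

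A few genes carried most of the plastid sum. psbA, which encodes the D1 protein at the core of photosystem II, was the highest in every library and alone gave 19.2% of the plastid sum in OX5-4, 26.0% in atbbd1, 21.1% in WT after PEG and 26.6% in WT at 0 h. psbA and rbcL, the gene of the large subunit of Rubisco, together gave 29.2%, 38.4%, 30.8% and 36% in the same order. The first 4 places among plastid genes were held in every library by psbA, rbcL, atpE and atpB, the last 2 encoding the epsilon and beta subunits of the ATP synthase. Against all 27655 genes, psbA ranked 448 in OX5-4, 249 in atbbd1, 411 in WT after PEG and 423 in WT at 0 h, and rbcL ranked 960, 557, 1057 and 1263. Only 2 plastid genes in OX5-4, 3 in atbbd1, 1 in WT after PEG and 1 in WT at 0 h were among the 1000 highest genes.

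Most plastid genes were low. The median over the 88 IDs was 2.07 FPKM in OX5-4, 3.09 FPKM in atbbd1, 1.87 FPKM in WT after PEG and 2.25 FPKM in WT at 0 h. At least 1 FPKM was reached by 58, 61, 56 and 58 of them, and at least 10 FPKM by 19, 18, 18 and 16. A value of 0 was listed for 15 IDs in OX5-4, 9 in atbbd1, 14 in WT after PEG and 13 in WT at 0 h. The comparisons below use the 65 IDs that reached 1 FPKM in at least 1 library, of which 58 are named. A further 15 stayed between 0 and 1 FPKM, among them accD, which encodes a subunit of the acetyl-CoA carboxylase of fatty acid synthesis, with at most 0.69 FPKM, and ndhF, a subunit of the NAD(P)H dehydrogenase-like (NDH) complex, with at most 0.76 FPKM. Just above the limit stood rpoC1 with at most 1.09 FPKM, and just below it ATCG00360 with at most 0.83 FPKM.

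The median level rose with the length of the reading frame, with a wide spread among genes of like length. The 7 named IDs with a coding length of up to 150 bases had a median of 0.163 FPKM, taken over each gene's mean of the 4 libraries, against 3.12 FPKM for the 19 between 150 and 400 bases, 4.95 FPKM for the 25 between 400 and 1000 bases and 11.1 FPKM for the 16 above 1000 bases. Of the 7 shortest, 4 were under 1 FPKM in every library, as were 3 of the 16 above 1000 bases, whose means ran from 0.453 to 192 FPKM. rpl32, of 159 bases, had a mean of 27.1 FPKM. Reads also differed inside 1 transcription unit. psbE, which encodes the alpha subunit of cytochrome b559 in photosystem II, had 57 reads in OX5-4, 77 in atbbd1, 26 in WT after PEG and 39 in WT at 0 h. psbF, psbL and psbJ, which share its transcript and encode other small subunits of photosystem II, had 0 or 1 read in any library. Whether length set these levels was not tested. The levels of the shortest genes are therefore not set against those of long ones here.

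**Figure D2:**
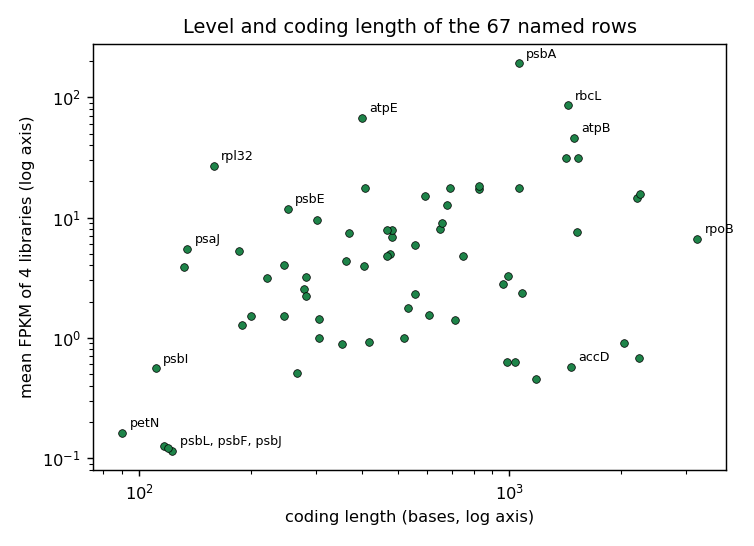
Mean FPKM over the 4 libraries (log axis) against coding length in bases (log axis) for the 67 named chloroplast-encoded IDs, 1 point each. The 7 shortest, up to 150 bases, have a median of 0.163 FPKM and the 16 above 1000 bases a median of 11.1 FPKM.

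Across the 4 libraries most of the higher plastid genes varied by less than 2-fold. Of the 21 IDs that reached 10 FPKM in at least 1 library, 18 differed by less than 2-fold between their highest and their lowest library. Among these were psbA at 1.7-fold and rbcL at 1.84-fold. The same share over all genes was not computed, so the count is not read as a trait of plastid genes. The narrowest span was that of ndhK, a subunit of the NDH complex, at 1.06-fold, and the widest that of psbE, at 2.74-fold.

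Photosystem II splits water and starts the electron transport of photosynthesis, and its 13 named genes held the largest plastid sum of any complex, 266 FPKM in OX5-4, 388 FPKM in atbbd1, 252 FPKM in WT after PEG and 286 FPKM in WT at 0 h. psbA had 154 FPKM in OX5-4, 261 FPKM in atbbd1, 159 FPKM in WT after PEG and 192 FPKM in WT at 0 h, from 2889, 4717, 2661 and 3126 reads. It was high in atbbd1 and lowest in OX5-4, which lay near WT after PEG. The genes of the inner antenna proteins, psbB (CP47) and psbC (CP43), varied far less: psbB had 34.2 FPKM in OX5-4, 35 FPKM in atbbd1, 29.7 FPKM in WT after PEG and 26.3 FPKM in WT at 0 h, and psbC had 32.2, 35.9, 30.2 and 25.9 FPKM. psbD, for the D2 protein, had 17.5, 20.8, 15.3 and 17.3 FPKM in the same order. psbE had 12.8 FPKM in OX5-4, 18 FPKM in atbbd1, 6.56 FPKM in WT after PEG and 10.1 FPKM in WT at 0 h, so that both lines stood above WT after PEG and OX5-4 and WT at 0 h lay close together. psbD and psbC overlap, and so may share reads, and psbA and psbD have the same coding length, so that only the ID tells them apart.

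Rubisco's large subunit gene was the second highest. rbcL had 79.3 FPKM in OX5-4, 125 FPKM in atbbd1, 73.5 FPKM in WT after PEG and 67.8 FPKM in WT at 0 h, from 2021, 3053, 1664 and 1497 reads. The atbbd1 library stood apart from the other 3.

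Photosystem I, which passes electrons on towards NADP, had 4 named genes with a sum of 35.8 FPKM in OX5-4, 46.8 FPKM in atbbd1, 40.9 FPKM in WT after PEG and 25.3 FPKM in WT at 0 h. Its core proteins are encoded by psaA, with 14.8, 22.0, 14.6 and 11.2 FPKM in the same order, and psaB, with 14.2, 17.1, 16.1 and 10.6 FPKM. Both were lowest in WT at 0 h and highest in atbbd1. psaJ, for a small subunit, was highest in WT after PEG at 8.48 FPKM, with 5.86 FPKM in OX5-4, 4.80 FPKM in atbbd1 and 2.90 FPKM in WT at 0 h. ycf4, for a photosystem I assembly factor, stayed between 2.12 and 2.55 FPKM.

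The 6 named genes of the ATP synthase, which makes ATP from the proton gradient across the thylakoid membrane, summed to 146 FPKM in OX5-4, 157 FPKM in atbbd1, 127 FPKM in WT after PEG and 115 FPKM in WT at 0 h. atpE had 72.8 FPKM in OX5-4, 76.0 FPKM in atbbd1, 66.8 FPKM in WT after PEG and 54.8 FPKM in WT at 0 h, and atpB had 49.8, 55.4, 38.6 and 40.8 FPKM. These 2 overlapping genes of 1 transcript gave most of the sum, and the other 4 stayed at or under 8.57 FPKM. The cytochrome b6f complex, which links the photosystems, had petB as its highest gene in the 3 PEG libraries, with 8.55 FPKM in OX5-4, 9.54 FPKM in atbbd1, 7.55 FPKM in WT after PEG and 6.24 FPKM in WT at 0 h, where petD had 7.02 FPKM.

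The NDH complex, which feeds electrons back into the chain around photosystem I, had 9 named genes with a sum of 25.7 FPKM in OX5-4, 34.8 FPKM in atbbd1, 27.9 FPKM in WT after PEG and 30.8 FPKM in WT at 0 h. ndhK alone gave 13.0 FPKM in OX5-4, 12.9 FPKM in atbbd1, 12.9 FPKM in WT after PEG and 12.3 FPKM in WT at 0 h, the steadiest value of any higher plastid gene.

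Among genes of the plastid's own expression machinery, rpoB, the beta subunit of the plastid-encoded RNA polymerase, had 7.51 FPKM in OX5-4, 7.61 FPKM in atbbd1, 6.00 FPKM in WT after PEG and 5.53 FPKM in WT at 0 h. Ribosomal protein genes of the large subunit summed to 110 FPKM in OX5-4, 107 FPKM in atbbd1, 108 FPKM in WT after PEG and 89.6 FPKM in WT at 0 h over 10 named IDs, and those of the small subunit to 43.0, 49.6, 44.4 and 35.9 FPKM over 11. The 3 PEG libraries were thus close together in the large-subunit sum. rpl32 was the highest single ID among them, below only rpl2 summed over its copies, with 24.9 FPKM in OX5-4, 28.5 FPKM in atbbd1, 28.4 FPKM in WT after PEG and 26.7 FPKM in WT at 0 h. rpl16 had 18.7, 18.6, 22.0 and 12.0 FPKM, and rpl22 had 6.55, 9.50, 10.5 and 5.27 FPKM in the same order. Both were highest in WT after PEG and lowest in WT at 0 h. In the small subunit, rps14 had 10.3 FPKM in OX5-4, 9.71 FPKM in atbbd1, 10.1 FPKM in WT after PEG and 8.4 FPKM in WT at 0 h, and rps3 had 9.81, 11, 9.29 and 6.06 FPKM.

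Of the remaining named genes, cemA, which encodes a protein of the chloroplast envelope, had 22.0 FPKM in OX5-4, 19.5 FPKM in atbbd1, 18.6 FPKM in WT after PEG and 10.9 FPKM in WT at 0 h. clpP, for the proteolytic subunit of the Clp protease, had 17.4, 17.9, 15.3 and 9.6 FPKM in the same order. For both genes the 3 PEG libraries lay together above WT at 0 h.

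**Figure D3:**
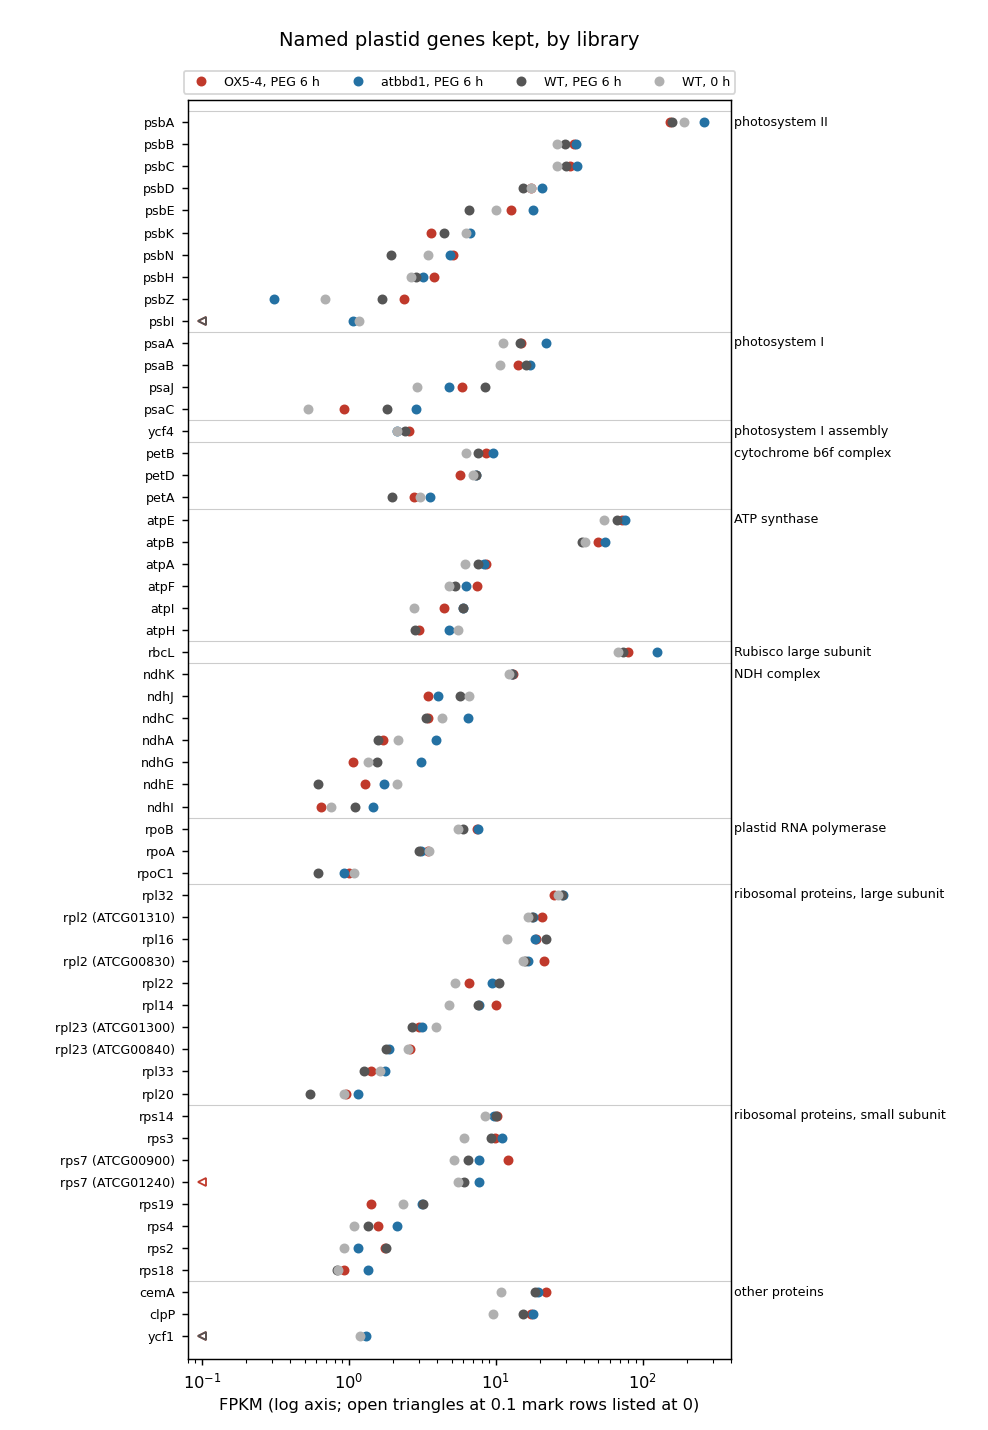
FPKM (log axis) of 56 of the 58 named chloroplast-encoded IDs that reached 1 FPKM in at least 1 library, grouped by complex, with 1 point per library and open triangles for values listed at 0. psbA and rbcL lie farthest right, and their points for atbbd1, at 261 and 125 FPKM, stand apart from those of the other 3 libraries.

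The genome holds an inverted repeat, so several plastid genes have 2 identical copies with an ID each, and reads cannot be placed between them. The split of FPKM between copies differed from library to library. rps7, for a small-subunit ribosomal protein, had 12.1 FPKM at ATCG00900 and 0 at ATCG01240 in OX5-4, 7.67 FPKM at both in atbbd1, 6.52 and 6.11 FPKM in WT after PEG, and 5.16 and 5.57 FPKM in WT at 0 h. Summed over the copies, rps7 had 12.1 FPKM in OX5-4, 15.3 FPKM in atbbd1, 12.6 FPKM in WT after PEG and 10.7 FPKM in WT at 0 h, so the 0 in OX5-4 belongs to 1 copy and not to the gene. The pair of rpl2, for a large-subunit ribosomal protein, stayed even in every library, with 21.2 FPKM at ATCG00830 and 20.8 at ATCG01310 in OX5-4, 16.7 and 17.8 FPKM in atbbd1, 15.8 and 17.6 FPKM in WT after PEG, and 15.3 and 16.6 FPKM in WT at 0 h. The short copy of ycf1, a gene of the protein import machinery of the inner envelope, which overlaps ndhF at the edge of the repeat, was listed at 0 in OX5-4 and in WT after PEG but had 1.31 FPKM in atbbd1 and 1.2 FPKM in WT at 0 h. Its partner ID ATCG01130, too long to be named by length, had 1.11 FPKM in OX5-4 and 1.08 FPKM in atbbd1. It had 1.27 FPKM in WT after PEG and 1.14 FPKM in WT at 0 h.

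**Figure D4:**
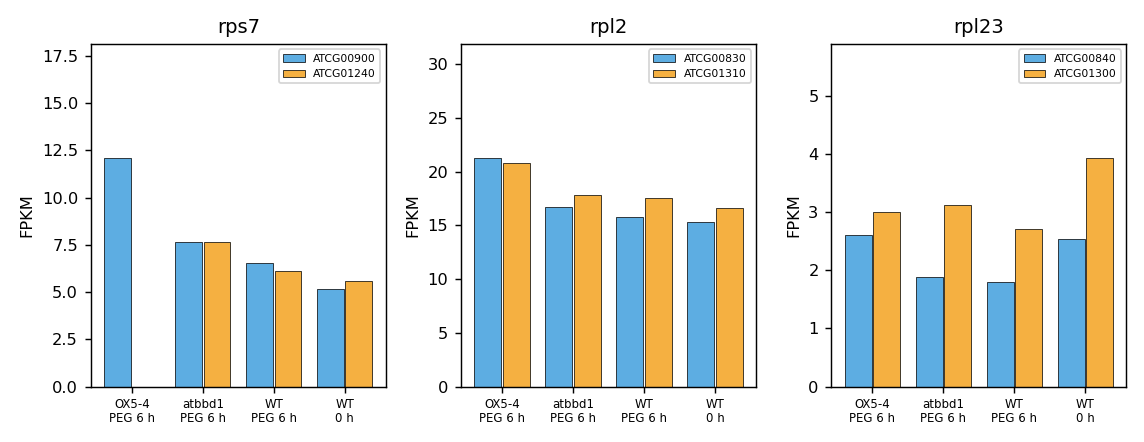
FPKM of both copies of rps7, rpl2 and rpl23 in the inverted repeat, by library, on linear axes that start at 0. In OX5-4 all reads of rps7 were listed at 1 copy, with 12.1 FPKM against 0, while the copies of rpl2 stayed within 15.3 to 21.2 FPKM.

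The first comparison asked what the knockout did under drought, by setting atbbd1 against WT after PEG. Plastid genes were mostly higher in atbbd1. The 2-fold threshold of the study was met by 8 of the 65 IDs in the higher direction (12.3%) and 1 in the lower direction (1.54%), where the shares over all 16374 genes kept were 1.07% higher and 5.29% lower. Of the 63 IDs above 0 in both libraries, 48 (76.2%) were higher in atbbd1 and 15 lower, against 35.3% higher over all genes. The median log2 ratio was 0.25 over the plastid IDs, -0.11 over all genes and -0.41 over 27 mitochondrial IDs. Most plastid genes were thus shifted by little, with the middle 50% between 0.01 and 0.62 on the log2 scale. rpl20 passed the filter of 1 FPKM only through atbbd1, at 1.16 FPKM against at most 0.96 FPKM elsewhere. So did rps18, at 1.35 FPKM against at most 0.92 FPKM. Both are counted as higher in atbbd1, a direction that the filter favoured. With no filter, 9 of 88 IDs were 2-fold higher and 1 lower, and the median log2 ratio was 0.24.

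The summed plastid FPKM was 1.33-fold that of WT after PEG, and in reads of the named IDs the ratio was 1.39 (95% counting interval, 1.36 to 1.43). psbA and rbcL accounted for part of it, since the sum of all other IDs was 621 FPKM in atbbd1 and 523 FPKM in WT after PEG, a ratio of 1.19. The sum of mitochondrial IDs was 0.845-fold that of WT after PEG.

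Among single genes, the counting interval of the ratio lay wholly above 1 for 13 of the 58 named IDs (22.4%) and wholly below 1 for none, where 13.8% of the 7855 nuclear genes with 1 transcript lay above and 28.6% below. An interval leaves out 1 more readily the more reads a gene has. The photosystem II genes gave the most such cases, with 5 of 10: psbA at 1.64-fold (1.56 to 1.72), psbE at 2.74-fold (1.74 to 4.46), psbD at 1.36-fold (1.15 to 1.60), psbC at 1.19-fold (1.07 to 1.32) and psbB at 1.18-fold (1.07 to 1.3). rbcL was at 1.70-fold (1.60 to 1.80), psaA at 1.51-fold (1.35 to 1.69), atpB at 1.43-fold (1.32 to 1.56) and rpoB at 1.27-fold (1.09 to 1.47). In psaB, the partner of psaA in the same transcription unit, the levels were 17.1 FPKM in atbbd1 and 16.1 FPKM in WT after PEG.

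Genes of the NDH complex were low, but those of 1 transcription unit were all higher in atbbd1. ndhA, for a membrane subunit, had 3.91 FPKM in atbbd1 and 1.58 FPKM in WT after PEG, a ratio of 2.47 (1.57 to 4.0). The 5 named genes that reached 1 FPKM in the unit that holds ndhH, ndhA, ndhE, ndhG and ndhI with psaC of photosystem I, were each higher in atbbd1, with a median log2 ratio of 0.99, although only ndhA had an interval wholly above 1. In OX5-4 the same genes had a median log2 ratio of -0.56 against WT after PEG, with 2 higher and 3 lower. Outside this unit, ndhC had 6.49 FPKM in atbbd1 and 3.33 FPKM in WT after PEG (1.95-fold, 1.1 to 3.56), and ndhJ of the same transcript had 4.07 and 5.73 FPKM (0.71-fold, 0.437 to 1.14).

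The cytochrome f gene petA had 3.54 FPKM in atbbd1 and 1.98 FPKM in WT after PEG, at 1.79-fold (1.13 to 2.88). Several 2-fold cases rested on few reads. ndhE was at 2.79-fold (0.693 to 15.9), psbN at 2.54-fold (0.754 to 11) and rpl20 at 2.15-fold (0.493 to 12.9), and for none of these could a difference be told from counting error. Against a floor of 3 reads in WT after PEG, the short ycf1 copy was at least 7.09-fold higher, with the doubt on copies given above. That copy is counted among the 2-fold cases and the intervals above 1, while its partner ATCG01130 had 1.08 FPKM in atbbd1 and 1.27 FPKM in WT after PEG. psbI was listed at 1.06 FPKM in atbbd1 and at 0 in WT after PEG, both within that floor.

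In the lower direction, psbZ had 0.31 FPKM in atbbd1 and 1.68 FPKM in WT after PEG, with an interval of 0.00391 to 1.65 about the ratio of 0.185. The next lowest ratios were those of psaJ at 0.566 (0.241 to 1.26) and rps2 at 0.648 (0.303 to 1.35), both with intervals that held 1. By complex, the ratio of sums of atbbd1 over WT after PEG ran from 0.987 for the large ribosomal subunit and 1.12 for the small one, through 1.14 for photosystem I, 1.21 for the plastid RNA polymerase, 1.23 for the ATP synthase, 1.24 for cytochrome b6f and 1.25 for the NDH complex, to 1.54 for photosystem II and 1.70 for rbcL. The large-subunit sum thus came lowest among these, and the small-subunit ratio lay close to that of photosystem I, while the assembly gene ycf4 stood at 0.88. No counting interval was computed for these ratios of sums.

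**Figure D5:**
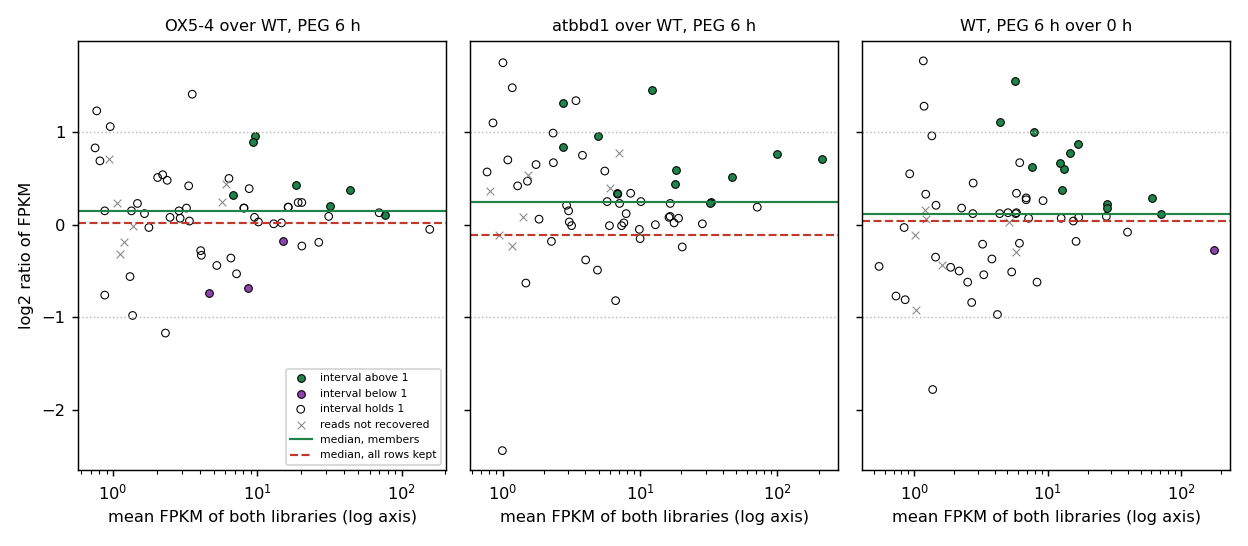
Log2 ratio of FPKM against mean FPKM of both libraries (log axis) for the chloroplast-encoded IDs kept and above 0 in both libraries, in OX5-4 over WT after PEG, atbbd1 over WT after PEG, and WT after PEG over WT at 0 h, with filled points where the counting interval of the ratio leaves out 1, crosses where reads were not recovered, and lines at the median of the plastid IDs (solid) and of all genes kept (dashed). In atbbd1 the plastid median is 0.25 and that of all genes -0.11. The points of psbA and rbcL, the highest in FPKM, lie above both, and that of atpE, the next highest, lies between them.

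The second comparison set OX5-4 against WT after PEG. Plastid genes differed little between them. At the 2-fold threshold 3 of the 65 IDs were higher in OX5-4 (4.62%) and 2 lower (3.08%), where the shares over all genes kept were 2.45% and 1.31%. Of the 62 IDs above 0 in both, 43 (69.4%) were higher and 19 lower in OX5-4, where 52.6% of all genes were higher. The median log2 ratio was 0.15 over the plastid IDs and 0.02 over all genes. The summed FPKM was 1.06-fold that of WT after PEG, and the ratio of reads in named IDs was 1.07 (1.04 to 1.1).

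psbA stood at 154 FPKM in OX5-4 and 159 FPKM in WT after PEG. The counting interval lay above 1 for 7 of 58 named IDs (12.1%) and below 1 for 4 (6.90%), where 17.4% and 15.0% of the nuclear genes with 1 transcript did so. Above 1 were psbE at 1.95-fold (1.21 to 3.23), atpB at 1.29-fold (1.18 to 1.40), rpoB at 1.25-fold (1.08 to 1.45), psbB at 1.15-fold (1.04 to 1.27) and rbcL at 1.08-fold (1.01 to 1.15), with 1 copy each of rpl2 at 1.34-fold (1.12 to 1.61) and rps7 at 1.85-fold (1.3 to 2.67). Below 1 were rpl22 at 0.622-fold (0.434 to 0.887), ndhJ at 0.6-fold (0.361 to 0.983) and psaB at 0.884-fold (0.785 to 0.996). The second copy of rps7, at 0 in OX5-4 and 6.11 FPKM in WT after PEG, was at least 16.9-fold lower against a floor of 3 reads, while the sum of both copies was 12.1 FPKM in OX5-4 and 12.6 FPKM in WT after PEG.

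Among the 2-fold cases in the higher direction, psbN was at 2.66-fold (0.808 to 11.3) and ndhE at 2.08-fold (0.474 to 12.4), and in the lower direction rps19 was at 0.445-fold (0.152 to 1.18). None of these could be told from counting error. psaC at 0.508-fold (0.109 to 2.0) and ndhI at 0.591-fold (0.174 to 1.86) were the next lowest. psbN and ndhE were also among the 2-fold cases of atbbd1, and both had few reads in the WT library that the comparisons share, at 1.93 and 0.62 FPKM.

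Since both lines were set against that same WT library, the libraries are best read side by side. Of the 65 IDs kept, 36 (55.4%) had their highest value of the 3 PEG libraries in atbbd1, where 26.9% of all genes kept did so. Over all 4 libraries the highest value was in OX5-4 for 16 IDs (24.6%, against 27.3% of all genes kept), in atbbd1 for 31 (47.7%, against 15.0%), in WT after PEG for 9 (13.8%, against 17.4%) and in WT at 0 h for 9 (13.8%, against 39.9%).

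The third comparison gave the response to drought in WT, by setting 6 h of PEG against 0 h, a design in which PEG and the 6 h that passed cannot be told apart. A smaller share of plastid genes than of all genes passed 2-fold. At the 2-fold threshold 4 of the 65 IDs were higher after PEG (6.15%) and 3 lower (4.62%), where 16.1% of all genes kept were higher and 15.9% lower. Of the 63 IDs above 0 in both, 39 (61.9%) were higher and 24 lower after PEG, where 52.0% of all genes were higher. The median log2 ratio was 0.12 over the plastid IDs, 0.04 over all genes and -0.85 over 27 mitochondrial IDs. The summed plastid FPKM after PEG was 1.05-fold that at 0 h, the ratio of reads in named IDs was 1.04 (1.01 to 1.07), and the mitochondrial sum was 0.771-fold. The middle 50% of plastid IDs lay between -0.32 and 0.34 on the log2 scale, against -0.60 and 0.65 over all genes.

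The sum without psbA and psbA itself lay on opposite sides of 1 in this comparison. psbA had 159 FPKM after PEG and 192 FPKM at 0 h, a ratio of 0.83 (0.788 to 0.874), while the sum without psbA was 597 FPKM after PEG and 530 FPKM at 0 h, a ratio of 1.13. Of the other higher genes, psbE at 0.65 (0.38 to 1.09), psbD at 0.885 (0.744 to 1.05) and atpB at 0.947 (0.863 to 1.04) also had less FPKM after PEG, with intervals that held 1. Besides psbA, only the short ycf1 copy, listed at 0 after PEG and 1.2 FPKM at 0 h, had an interval wholly below 1 among the 58 named IDs, and 13 had one wholly above 1. These shares of 3.45% and 22.4% stood beside 36.6% and 37.5% of nuclear genes with 1 transcript. rbcL was at 1.08-fold (1.01 to 1.16).

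The photosystem I genes were each higher after PEG. psaB was at 1.51-fold (1.32 to 1.73), psaA at 1.3-fold (1.14 to 1.49), psaJ at 2.92-fold (1.11 to 9.0) and psaC at 3.42-fold (0.650 to 33.7), and the sum of the 4 was 40.9 FPKM after PEG and 25.3 FPKM at 0 h, a ratio of 1.62. The photosystem II sum was 252 FPKM after PEG and 286 FPKM at 0 h, a ratio of 0.881, and psbA alone gave 159 and 192 FPKM of it. Of the photosystem II IDs above 0 in both, 4 were higher and 5 lower, with a median log2 ratio of -0.18. psbC at 1.17-fold (1.04 to 1.31) and psbB at 1.13-fold (1.01 to 1.26) were among the higher ones. In the ATP synthase, atpI, for a membrane subunit, had 6.02 FPKM after PEG and 2.78 FPKM at 0 h, a ratio of 2.17 (1.41 to 3.39), and atpE was at 1.22-fold (1.05 to 1.41). atpH, for the ring subunit in the same unit as atpI, had 2.84 FPKM after PEG and 5.57 FPKM at 0 h, with an interval of 0.222 to 1.11 about the ratio of 0.51.

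Of the 10 large-subunit ribosomal IDs, 6 were higher and 4 lower after PEG, with a median log2 ratio of 0.06 and none past 2-fold. rpl22 was at 2.0-fold (1.35 to 3.01), just short of the threshold before rounding, rpl16 at 1.83-fold (1.38 to 2.46), clpP at 1.59-fold (1.21 to 2.1) and rps3 at 1.53-fold (1.1 to 2.15), and the envelope gene cemA was at 1.71-fold (1.35 to 2.17). rpl22, rpl16 and rps3 lie in 1 transcription unit, whose 10 named IDs summed to 78.2 FPKM after PEG and 56.6 FPKM at 0 h, a ratio of 1.38. rps3 and rpl22 overlap, so their reads are not wholly independent. In the lower direction the ratios of ndhE at 0.291 (0.0517 to 1.14), psbN at 0.558 (0.12 to 2.19) and rpoC1 at 0.569 (0.313 to 1.02) had intervals that held 1, as did that of psbZ in the higher direction at 2.43 (0.399 to 25.6). ATCG01250 had 0.71 FPKM after PEG and 1.34 FPKM at 0 h, and psbI was listed at 0 after PEG and 1.18 FPKM at 0 h.

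Of the nuclear genes that serve transcription in organelles, 2 of 6 plastid sigma factors and all 3 phage-type polymerases were 2-fold or more lower after PEG. None was 2-fold higher, where 15.9% of all genes kept were lower and 16.1% higher. Sigma factors, which bring the plastid-encoded polymerase to its promoters, are made in the nucleus, and SIG1 had 52.5 FPKM in WT after PEG and 209 FPKM at 0 h, while SIG5 had 11.9 and 95.4 FPKM. The 6 sigma factor genes summed to 242 FPKM in WT after PEG and 489 FPKM at 0 h. SIG6 had 40.3 FPKM after PEG and 67.1 FPKM at 0 h, SIG2 had 56.0 and 63.0 FPKM, and SIG3 30.5 and 28.8 FPKM. SIG4 went the other way, with 50.5 FPKM after PEG and 25.8 FPKM at 0 h. SCA3, the phage-type polymerase of the plastid, had 2.82 FPKM after PEG and 16 FPKM at 0 h. The related gene AT5G15700 (RPOTmp), whose product serves both organelles, had 1.06 FPKM after PEG and 3.34 FPKM at 0 h. MGP3 (RPOTm), the polymerase of the mitochondrion and not of the plastid, had 1.74 FPKM after PEG and 10.1 FPKM at 0 h.

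Between atbbd1 and WT after PEG the sigma factors differed in both directions. SIG4 had 68.3 FPKM in atbbd1 and 50.5 FPKM in WT after PEG (1.35-fold, 1.25 to 1.46), SIG2 had 72.1 and 56.0 FPKM (1.29-fold, 1.21 to 1.37), and SIG6 had 50.1 and 40.3 FPKM (1.24-fold, 1.15 to 1.33). SIG5, whose product acts at a psbD promoter under light and stress, had 4.85 FPKM in atbbd1 and 11.9 FPKM in WT after PEG, and psbD was at 1.36-fold. Whether the levels of SIG5 and psbD are linked was not tested. SIG1 had 44.6 FPKM in atbbd1 and 52.5 FPKM in WT after PEG, and SIG3 had 28.3 and 30.5 FPKM. In OX5-4 the 6 sigma factors stayed within a log2 ratio of -0.14 to 0.46 of WT after PEG, the last being SIG5 at 16.4 FPKM. The 3 phage-type polymerase genes were between 0.90 and 2.71 FPKM in atbbd1 and between 0.98 and 2.51 FPKM in OX5-4.

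Rubisco needs a small subunit as well, encoded in the nucleus by RBCS1A, RBCS1B, RBCS2B and RBCS3B. These 4 summed to 14751 FPKM in OX5-4, 21957 FPKM in atbbd1, 14800 FPKM in WT after PEG and 27042 FPKM in WT at 0 h. All 4 were higher in atbbd1 than in WT after PEG, with a ratio of sums of 1.48 beside 1.70 for rbcL. They parted from rbcL in the drought comparison, where their sum was 0.547-fold after PEG and rbcL was at 1.08-fold. The single genes are nearly identical in sequence, so reads may have been split among them.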

How the data were processed

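The deposited table holds FPKM, which the authors computed with Cufflinks from reads mapped to TAIR10. The mapper is HISAT2 in the paper and TopHat2 in the submitters' processing notes, the mRNA kit is stranded in the paper and standard in the labels, and whether counting used strand is not stated there. FPKM is normalized to mapped fragments and transcript length. The members and gene lists were chosen with earlier results of these data known. Named were genes that reached 10 FPKM, those with the 5 highest or 5 lowest ratios of a comparison, the highest gene of each role list, and the nuclear lists in full, except that 2 of the 58 named IDs kept are not reported here.

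Total fragments per library were those at which FPKM × length × total gave whole reads for nuclear genes with 1 transcript in TAIR10.1 (99.2% to 99.3% of values within 0.15, against 13.2% to 14.5% at a total 1.3% higher). Plastid IDs were named by coding length in the same way. Lengths of other plastid genes matched in 0.411% of 4618 pairs. These pairs covered only IDs above 0 in all 4 libraries and lengths short enough to check. For 48 of the 67 named IDs no other plastid length fitted. For the rest at least 1 other length did, with 4 for psbI and 4 for psbF, so those names rest more on the ID. For 10 IDs a gene of equal length exists (psbA and psbD, for example), and 6 IDs rest on 1 or 2 libraries (psbI, petN, psbJ, psbL, psbF and the short ycf1 copy). No match came from 9 IDs, 4 were too long to check, and 8 were at 0. No coordinates or sequences are given, since the annotation used is of another build and does not link to these IDs.

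IDs that reached 1 FPKM in any library were kept. Ratios have no pseudocount, and an ID at 0 was called only if the other library reached 1 FPKM. Intervals are exact 95% binomial intervals on reads. With 1 library per group there was no test. The depth search and intervals were tested on simulated data. Python 3.11.15, numpy 2.4.6, pandas 2.3.3 and scipy 1.17.1 were used.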

Additional observations from a re-analysis of the deposited data

How the results depend on the processing

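Of 93 values recomputed under other settings, 60 stayed within 1.5 times the count, or of ratios and medians within the counting error of the summed reads, none changed direction, and 33 moved. For WT after PEG against WT at 0 h, where 4 IDs were higher and 3 lower, a filter of 5 FPKM gave 2 and 0, a pseudocount of 1 FPKM gave 1 higher, a 4-fold threshold 0 higher, and ratios relative to the plastid median 5 lower. The median log2 ratio of 0.12 was 0.07 with no filter and with median-of-ratios scaling, 0.06 relative to the nuclear sum and 0.00 relative to the plastid median. The ratio of sums of 1.05 was 1.13 without psbA and also without psbA and rbcL, and 1.01 with median-of-ratios scaling and relative to the nuclear sum. For OX5-4 against WT after PEG, where 3 were higher and 2 lower, the filter of 5 FPKM and the pseudocount each gave 1 and 1, the 4-fold threshold 0 and 1, and either 1 copy or the sum of each repeat gene 1 lower. The median of 0.15 was 0.09 with the pseudocount and 0.00 relative to the plastid median. For atbbd1 against WT after PEG, where 8 were higher and 1 lower, the filter of 5 FPKM gave 2 and 0, the pseudocount 4 higher, the 4-fold threshold 2 higher, and the plastid median 2 lower. The median of 0.25 was 0.35 with median-of-ratios scaling and 0.00 relative to the plastid median, and the ratio of sums of 1.33 was 1.43 with median-of-ratios scaling, 1.25 without psbA and 1.19 without psbA and rbcL. A value relative to the plastid median is 0.00 by construction, and fewer IDs enter under the filter of 5 FPKM. The cause was not tested for the others. Summing the copies and leaving out psbA and rbcL were chosen after seeing the data. Leaving out ribosomal and transfer RNA genes was not run, since the table holds none.

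No paired analysis was possible because each group has 1 library and the labels give no replicate numbers. No library was left out in turn for the same reason. Plastid RNA entered these libraries at 678 to 981 reads per 1000000 mapped, which leaves genes of few reads with intervals that span several-fold. Plants, harvests and preparations cannot be told apart from genotype or treatment.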
